A study of Mus musculus with 4 samples.

Results

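Cdx2, Elf5, Tfap2c, Gata3, Eomes, Ascl2 and Hand1, 7 transcription factor genes of the trophoblast lineage, were followed through accessible chromatin in 4 mouse cell populations. ATAC-seq reads accessibility from where a transposase can cut chromatin and tag it with adapters, and each population gave 1 library. The protocol states 50000 sorted cells. All peaks that lay over the gene bodies or within 100 kb of them on GRCm38 were taken, whatever their height. The genes themselves were chosen with earlier results of these data known. Peaks of any list overlapping by 1 bp or more were joined as 1 region, which gave 253 regions at the 7 genes out of 256632 in the series. A region is called open in a library that listed a peak in it and closed otherwise, and "closed" means only that no peak was listed.

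The population described here was a sorted intermediate of OSKM reprogramming, in which Oct4, Sox2, Klf4 and Myc are induced in fibroblasts on the way to neural stem cells. Its fibroblasts carried a Nanog-CreER reporter, and its labels give the strain as B6/129, with Rosa26-TdTomato from a B6 female and Col1a-OSKM from a 129 male. The medium held doxycycline, which induces the factors, and 4-hydroxytamoxifen, which activates the Cre, between days 1 and 9, beside 0.5 µM of a JAK1 inhibitor. From it tdTomato-positive cells, which had used the Nanog-driven Cre, were sorted without feeder cells. The title of this library gives day 9 and its source field day 6. The other libraries came from iPSC, which are reprogrammed pluripotent cells, from ESC, the embryonic stem cell line v6.5, and from MEF, embryonic fibroblasts. The iPSC and MEF libraries are labelled A12 (Mbd3 flox/-) for both strain and transgene, and the ESC are the line v6.5. Strain or line label and cell state therefore cannot be told apart in any comparison of the intermediate.

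The trophoblast is the first lineage set aside in the embryo and forms the fetal part of the placenta. Embryonic stem cells rarely enter it, and overexpression of Cdx2, Eomes or Gata3 is known to push them towards it. Cdx2 is a homeobox factor required for the trophectoderm, and Tfap2c and Gata3 act beside it. Eomes is a T-box factor needed for trophoblast outgrowth. Elf5 is an Ets factor that sustains trophoblast stem cells and whose promoter is known to be methylated in embryonic stem cells. Ascl2 and Hand1 are basic helix-loop-helix factors of the later placenta, Ascl2 for the spongiotrophoblast and Hand1 for giant cells.

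Start sites of 5 of the 7 genes had entries in the RefSeq promoter table for GRCm38.p6, with 2 start sites for Elf5 and none for Tfap2c or Hand1. Cdx2 and both Elf5 start sites, whose values are described first, are printed below as the 250 bases before the start, 5′ to 3′ on the strand of the gene, with motif matches in capitals. They lie at chr5:147307250-147307499 on the minus strand for Cdx2, at chr2:103411848-103412097 on the plus strand for the first start of Elf5 and at chr2:103423818-103424067 on the plus strand for its second.
Cdx2: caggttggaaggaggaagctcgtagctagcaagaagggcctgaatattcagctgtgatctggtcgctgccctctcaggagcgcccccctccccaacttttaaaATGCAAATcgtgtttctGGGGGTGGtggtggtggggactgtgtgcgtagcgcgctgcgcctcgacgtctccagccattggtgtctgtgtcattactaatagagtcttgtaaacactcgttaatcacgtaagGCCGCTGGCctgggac
Elf5 start 1: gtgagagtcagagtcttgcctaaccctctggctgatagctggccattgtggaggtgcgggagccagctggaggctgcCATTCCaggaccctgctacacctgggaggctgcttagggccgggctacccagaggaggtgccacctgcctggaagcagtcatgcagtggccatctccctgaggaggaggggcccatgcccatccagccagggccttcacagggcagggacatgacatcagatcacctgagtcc
Elf5 start 2: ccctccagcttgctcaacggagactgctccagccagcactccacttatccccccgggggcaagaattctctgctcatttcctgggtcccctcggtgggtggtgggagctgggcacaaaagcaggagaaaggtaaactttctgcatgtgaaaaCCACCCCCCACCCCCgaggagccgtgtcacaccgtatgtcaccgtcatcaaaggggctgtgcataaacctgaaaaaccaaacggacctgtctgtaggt

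The capitals in the Cdx2 sequence mark, from left to right, the octamer motif of Oct4 on the opposite strand (ATTTGCAT, first base 147 before the start), a Klf motif (GGGNGTGG, 130 before) and an AP-2 motif (GCCNNNGGC, 16 before). In the first Elf5 sequence they mark a Tead motif on the opposite strand (GGAATG, 173 before). In the second they mark a pair of Klf motifs on the opposite strand, 98 and 91 before the start, which share 1 base. Among the same 250 bases of all 32619 entries, 1.61% held the octamer, 16% the Klf, 13.8% the AP-2 and 12.6% the Tead motif on either strand. Of the 6 start sites of these genes, 4 held a Klf motif, 2 an AP-2 motif, and 1 each the octamer and the Tead motif. Among the start sites not printed, Gata3 held Klf and AP-2 motifs and Ascl2 a Klf motif. The other motifs searched had no match at any of the 6 start sites. They were AGATAA for GATA factors (10.0% of entries), ACAAAG for Sox (16.5%), AGGTGTGA for T-box factors (1.13%), TTTATNG for Cdx (9.76%), CCGGAAGT for Ets (2.90%), CACGTG for Myc (6.06%) and TGANTCA for AP-1 (6.78%). A match describes letters in this window and does not show that a factor binds there.

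The intermediate had a peak over the Cdx2 start site where MEF had none. The intermediate peak was 27 high, the iPSC peak 30 and the ESC peak 35, and the nearest MEF peak lay 7289 bp away beyond the far end of the gene. Height is a whole number deposited with each peak and carries no correction for depth, so heights of different lists are given side by side and not compared. Each of these peaks was low or middling in its own list, taller than 38.7% of intermediate, 33.6% of iPSC and 55.4% of ESC peaks. Their summits fell at -11, -11 and -46 bases from the start site (negative before it), and each peak covered the whole sequence printed above. A start window (the 250 bases before to the 50 after a start) open in all libraries but MEF was found at 2.65% of entries.

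The start sites of Elf5 were open in different libraries. At the first one, MEF alone had a peak, with a height of 20 and its summit at -163, which ended 18 bp before the start. The intermediate had its nearest peak 1353 bp into the gene, iPSC 4293 bp into it and ESC 10858 bp before it. At the second one, inside the gene, the intermediate alone had a peak, with a height of 58, taller than 75.2% of its list, and a summit at -58. This peak spanned chr2:103423651-103424301 and thus all of the second sequence; iPSC had its nearest peak 623 bp further into the gene. Over all entries 1.44% were open in the intermediate alone and 3.07% in MEF alone.

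The start windows of Gata3 and Ascl2 held a peak in every library, and that of Eomes in all but the intermediate. The Gata3 peaks were 45 high (intermediate), 113 (iPSC), 51 (ESC) and 82 (MEF), and the Ascl2 peaks 33, 71, 97 and 21 in that order. At Eomes there was no peak over the start window in the intermediate, against heights of 15 in iPSC, 30 in ESC and 31 in MEF. The intermediate peak nearest to the Eomes start began 112 bp inside the gene with a height of 42. It belonged to a merged region that spans the start and was open in every library, chr9:118477851-118479831. Heights there were 42, 68, 67 and 36 in the intermediate, iPSC, ESC and MEF, so the Eomes call holds for the start window only. In all, 2 of the 6 start windows were open in the intermediate and closed in MEF (Cdx2 and the second of Elf5), where 4.97% of all entries were. The opposite held for 2 of 6 (the first of Elf5, and Eomes), where 7.08% of all entries were.

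**Figure D1:**
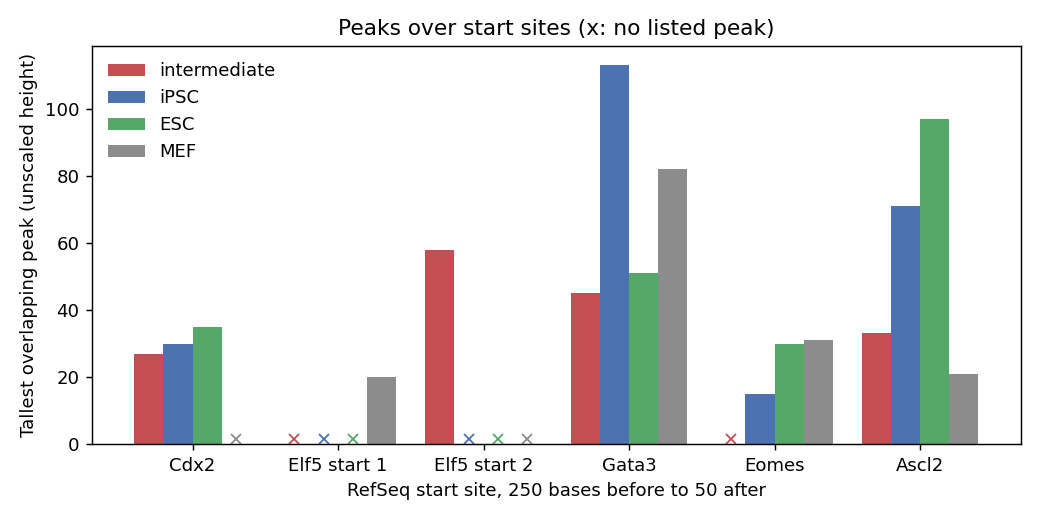
Height of the tallest peak that shares at least 1 bp with the start window of each RefSeq start site (250 bases before to 50 after), in 1 library per bar; a cross stands for no listed peak. Cdx2 lacks a bar in MEF alone, the second Elf5 start has one in the intermediate alone (58), and the first Elf5 start in MEF alone (20).

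The promoters differed in the number of CpG dinucleotides before the start. Gata3 and Ascl2 had 19 CpGs each in the 250 bases, more than 80.1% of entries, and Cdx2 had 13. Eomes and the second Elf5 start had 8 each, and the first Elf5 start had 2, more than 18.6% of entries. When all entries were ranked into 4 equal groups by CpG count, 85.8% of the group with the most CpGs were open in all 4 libraries, 52.5% and 8.04% of the next ones and 1.56% of that with the fewest. The start windows open in every library at these genes, those of Gata3 and Ascl2, were the ones with the most CpGs.

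When both ends of each gene were taken, with 1 kb on each side, 4 of the 7 genes had a peak in the intermediate, 4 in iPSC, 5 in ESC and 5 in MEF. These were 57.1%, 57.1%, 71.4% and 71.4% of the genes, near the shares of all protein-coding genes, 62.3%, 65.3%, 67.2% and 64.3%. None of the 7 genes gained an end peak in the intermediate over MEF, where 5.64% of 21631 protein-coding genes did, and Elf5 lost one, where 7.64% did. Hand1 had no end peak in any library. Tfap2c had end peaks in ESC alone, the tallest with a height of 72. A wider list of 21 trophoblast genes had end peaks at 10 genes in the intermediate, 13 in iPSC, 14 in ESC and 11 in MEF, which was 47.6%, 61.9%, 66.7% and 52.4%. Of that list Tfap2a, an AP-2 factor related to Tfap2c, and Plet1, a surface marker of trophoblast progenitors, gained one. Tfap2a was 75, 71 and 91 high at its ends in the intermediate, iPSC and ESC. Plet1 was 110, 54 and 27 high. Dlx3, a homeobox factor of the placental labyrinth, Krt7, a keratin of trophoblast cells, and Prl3d1, a placental lactogen, lost one, with MEF heights of 31, 24 and 49.

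Markers of the labelled cell types were not all in place. Fibroblast markers had end peaks at 3 of 8 genes in the intermediate, 4 in iPSC, 6 in ESC and 8 in MEF, and pluripotent markers at 6, 8, 6 and 1 of 8. Pou5f1, which encodes Oct4, and Esrrb had an end peak in iPSC alone, with heights of 790 and 66, and thus none in ESC. Col1a1, a fibroblast collagen, had one in the intermediate (138), ESC (51) and MEF (103). Postn and Col3a1 had one in MEF alone. Whether other cells in a library contributed to the regions described here was not tested. Of 5 markers each, in the same order, primitive endoderm had them at 2, 4, 4 and 2, endothelium at 1, 3, 2 and 2, and myeloid cells at 1, 2, 2 and 3. The lists held 129533 to 157212 peaks on the chromosomes compared, and the read depth behind them is unknown.

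Over the whole windows, the genes differed in which population had the most open regions. The intermediate had 107 open regions at the 7 genes, iPSC 86, ESC 95 and MEF 107, out of 89826, 92991, 80040 and 117256 in the series. The median protein-coding gene had 13, 11, 11 and 16 open regions within the same distance. The intermediate had the most at Elf5, with 28 against 14 in iPSC, 8 in ESC and 13 in MEF, and at Tfap2c, with 25 against 16, 18 and 15. At Cdx2 the intermediate had 10, iPSC 7, ESC 17 and MEF 9, and at Eomes 14, 12, 18 and 11 in that order, so that ESC had the most at both. At Ascl2 the counts were 10, 6, 15 and 27 and at Hand1 5, 13, 6 and 17. The MEF counts exceeded those of 75.3% of genes at Ascl2 and of 51.9% at Hand1, and MEF had the longest list. At Gata3 they were 15, 18, 13 and 15. In these bulk libraries a region open in some cells and one less open in all cells cannot be told apart. Of the 253 regions, 19 were open in every library, 7.51%, where 7.03% of all regions in the series were. Just inside the limit of 100 kb lay 14 regions in the last 10 kb and just outside it 16 in the next 10 kb, among them one 101 kb from Elf5 with an intermediate height of 210, an iPSC height of 210 and an ESC height of 83.

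**Figure D2:**
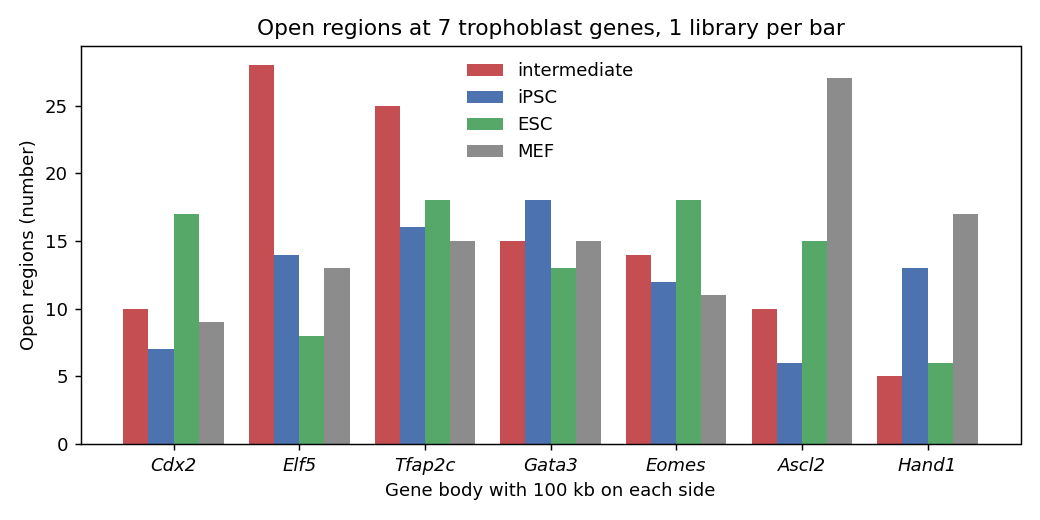
Number of merged regions holding a peak of each library, over the gene body and 100 kb on each side, with 1 library per bar. The intermediate bars are tallest at Elf5 (28) and Tfap2c (25), and the MEF bars at Ascl2 (27) and Hand1 (17).

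As many regions were gained as lost when the intermediate was set against MEF. Of the 253 regions, 77 were open in the intermediate and closed in MEF, 30.4% (Wilson 95% interval 25.1 to 36.4), where 25.1% of all regions in the series were. Another 77 were closed in the intermediate and open in MEF, also 30.4%, where 35.8% of all regions were. The intervals cover counting error over regions only, and neighbouring regions can be parts of 1 stretch that the authors' processing had divided. After joining peaks of a list at most 10 bp apart, 54 stretches were gained, 33.5% (26.7 to 41.1), where 24.6% of all stretches were. The same step left 36 lost, 22.4% (16.6 to 29.4), where 30.1% of all stretches were. For comparison, iPSC gained 58 regions over MEF, 22.9%, where 26.4% of all regions were, and ESC gained 65, 25.7%, where 20.9% were. These comparisons share the MEF library. With 1 library per group no test was run on any of these counts.

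**Figure D3:**
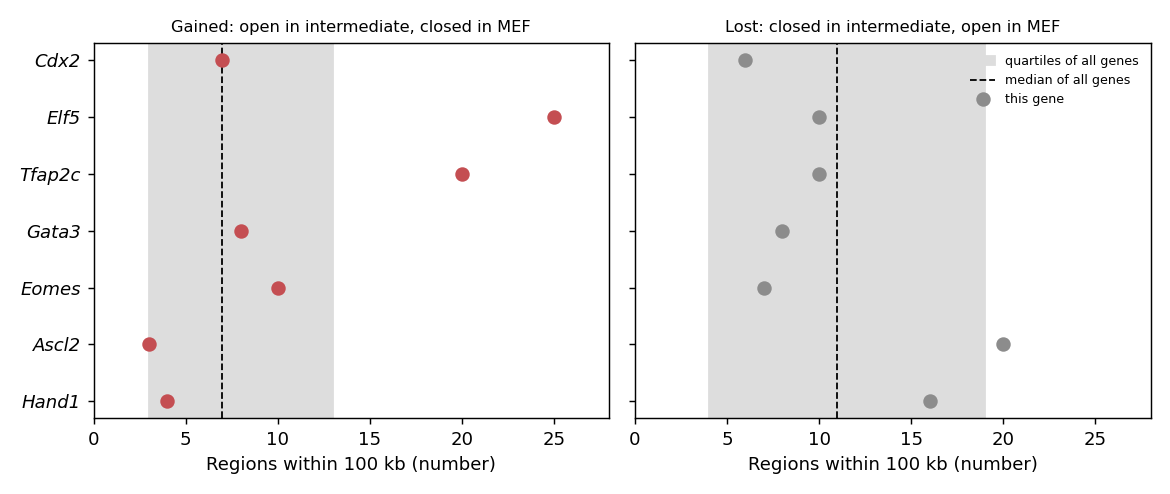
Regions gained (left) and lost (right) in the intermediate against MEF within 100 kb of each gene, as points; the grey band spans the quartiles and the dashed line the median of 21631 protein-coding genes. Elf5 (25) and Tfap2c (20) lie above the band for gains, and Ascl2 (20) lies above it for losses.

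Elf5 gained 25 regions in the intermediate and lost 10, or 16 and 4 after joining. The median protein-coding gene gained 7 within the same distance, and 95.5% of genes gained fewer than Elf5. Of the 25, 14 lay upstream, 6 in the gene and 5 downstream, and 19 had Elf5 as their nearest gene. The tallest lay 38.8 kb upstream at chr2:103371901-103373291, with a height of 319 in the intermediate, taller than 99.5% of its list, 32 in iPSC and none in ESC or MEF. Next to the gene, 4.65 to 6.35 kb upstream, the intermediate alone had a run of 3 regions with heights of 89, 108 and 66. These lay 10 bp apart and form 1 stretch after joining. Of all 28 intermediate regions in this window 21 were in no other list, 75% (56.6 to 87.3), where the share over the series was 52.0%. After joining, these were 12 of 19 stretches, where the share over the series was 37.8%. The region shared by the intermediate (104), iPSC (144) and ESC (68), 50.5 kb upstream at chr2:103360371-103361550, was the tallest that all 3 had and MEF lacked. The tallest lost region, 67.8 kb upstream, had a MEF height of 84. The tallest region open in every library lay at the end of the neighbouring gene Cat, which encodes catalase, with heights of 130, 421, 198 and 235 in the intermediate, iPSC, ESC and MEF.

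Tfap2c gained 20 regions and lost 10, or 14 and 3 after joining, and 90.6% of genes gained fewer than 20. Of the 20, 9 were also open in iPSC or ESC and 11, or 55% (34.2 to 74.2), were in no other list, where 72.5% of gained regions over the series were. After joining, 5 of 19 intermediate stretches were in no other list, where 37.8% over the series were. The tallest was chr2:172516061-172517560, 28.1 kb from the gene on the side of lower coordinates, with an intermediate height of 243, an iPSC height of 50 and an ESC height of 145. On the other side, 9.22 and 17.9 kb away, chr2:172567841-172569170 had heights of 92, 39 and 33 and chr2:172576541-172578150 had 80, 98 and 100 in the same order. All 10 lost regions lay at lower coordinates, and 8 of them were nearer to another gene than to Tfap2c. The gene body held 2 regions open in every library, at chr2:172546721-172548400 with heights of 69, 63, 30 and 29 in the intermediate, iPSC, ESC and MEF, and at chr2:172548551-172551920 with 92, 68, 89 and 56. At the lower-coordinate end of the gene 4 neighbouring regions were open in ESC alone, at most 72 high.

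**Figure D4:**
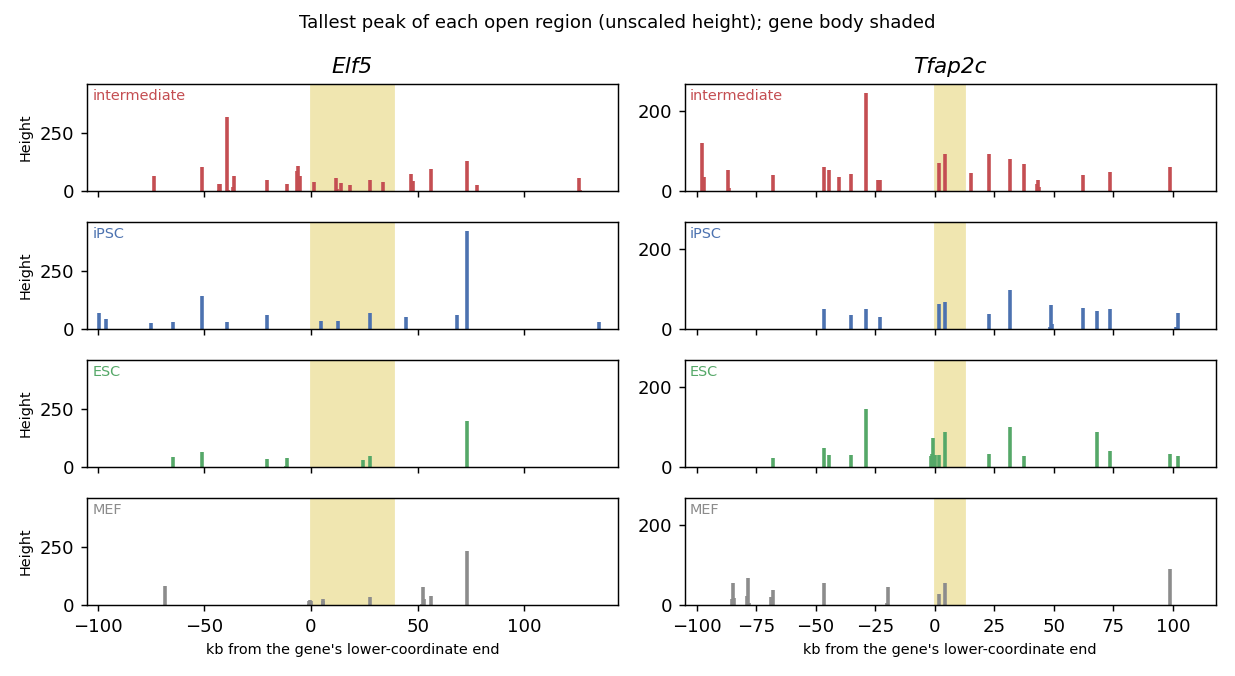
Open regions at Elf5 (left) and Tfap2c (right) by distance in kb from the lower-coordinate end of the gene, 1 row per library; each line is a region, its length the unscaled height of the tallest peak, and the gene body is shaded. The tallest intermediate lines stand 38.8 kb from Elf5 (319) and 28.1 kb from Tfap2c (243), and the line at the end of Cat stands in every row on the left.

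Cdx2 gained 7 regions and lost 6, or 6 and 2 after joining, and 6 of the 7 gains were also open in ESC, 85.7% (48.7 to 97.4), where 22.4% of gained regions over the series were. In iPSC 3 of the 7 were open, 42.9% (15.8 to 75.0), where 21.1% over the series were. Of 10 intermediate regions 1 was in no other list, or 0 of 9 stretches after joining. Cdx2 was the nearest gene for 3 of the 7 gains, and for 2 of the 6 also open in iPSC or ESC. The body of the gene held chr5:147304251-147305560, with an intermediate height of 88, an iPSC height of 41 and an ESC height of 39, and no MEF peak lay in the body at all. Just beyond the far end, chr5:147298921-147300280 was open in every library, with heights of 57, 39, 75 and 44 in the intermediate, iPSC, ESC and MEF. The tallest gained region lay 71.9 kb upstream, inside Flt3, which encodes a receptor of blood progenitors, and was 104 high in the intermediate and 30 in ESC. The region at Pdx1, a pancreatic homeobox gene next to Cdx2, was closed in the intermediate alone, against heights of 41 in iPSC, 51 in ESC and 37 in MEF.

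Eomes gained 10 regions and lost 7, or 7 and 4 after joining. Of the 10, 5 were also open in iPSC or ESC and 5 were in no other list. Joining left 2 of 11 intermediate stretches in no other list, where 37.8% over the series were. The tallest was chr9:118496871-118497961, 10.7 kb downstream, with an intermediate height of 156, an iPSC height of 62 and an ESC height of 38, and the region 71.2 kb upstream had 148, 161 and 172. Another, 26.4 kb downstream, was 129 high in the intermediate and 27 in iPSC. The 6 gained regions downstream were nearer to the neighbouring gene Golga4 than to Eomes. In the gene body the intermediate had 1 open region, iPSC 3, ESC 2 and MEF 1.

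Gata3 gained 8 regions and lost 8, or 6 and 6 after joining. It was the nearest gene for 4 of the 8 gains and 7 of the 8 losses. Within 20 kb it gained 0 regions and lost 5. It was the only one of the 7 genes with more than 1 MEF-only region (open in MEF, closed in iPSC and ESC) open in the intermediate, 4 of 9, 44.4% (18.9 to 73.3), where the share over the series was 5.11%. The tallest of these, 64.1 kb downstream at chr2:9791671-9792970, had heights of 66 in the intermediate and 85 in MEF. The region that holds the start site, chr2:9877941-9880130, was the tallest of the window in each library, with heights of 191, 459, 240 and 270 in the intermediate, iPSC, ESC and MEF. The 4 summits there lay within 95 bp of each other. A broad region upstream of it in the gene, chr2:9880731-9883650, was closed in the intermediate alone, against heights of 41 in iPSC, 35 in ESC and 77 in MEF.

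Ascl2 gained 3 regions and lost 20, or 3 and 9 after joining, yet 0 of the 20 had Ascl2 as their nearest gene. The median protein-coding gene lost 11, with quartiles of 4 and 19, and 76.4% of genes lost fewer than 20. The lost regions at Ascl2 lay 17 upstream and 3 downstream, and 13 of them were nearest to Tspan32 and 4 to Cd81, both tetraspanin genes that share the imprinted neighbourhood of Ascl2 on chromosome 7. Within 20 kb of Ascl2, 1 region was gained and 0 were lost. The gene itself lay under a single region open in every library, chr7:142967001-142969770, 49 high in the intermediate, 71 in iPSC, 97 in ESC and 42 in MEF. Its tallest summits in the 4 libraries were up to 1815 bp apart. The tallest lost region, 62.6 kb upstream, had a MEF height of 78. The 3 gained regions were in no other list and at most 63 high. On the other side, 8 of the 10 regions nearest to Th, which encodes tyrosine hydroxylase, were closed in the intermediate and iPSC and open in ESC. The 7 of them open in ESC alone lay in runs of pieces 10 bp apart, which joining merges into fewer stretches, with heights of 6 to 33.

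Hand1 had no peak over its gene body in any library, and the nearest region lay 8.05 kb away with heights of 42 in iPSC, 27 in ESC and 38 in MEF. It gained 4 regions and lost 16, or 2 and 8 after joining, and 66.7% of genes lost fewer than 16, which lay inside the quartiles given for Ascl2. Of the 16, 2 had Hand1 as their nearest gene and 7 each had Galnt10 or Larp1. The tallest lost were chr11:57911471-57912341, 79.3 kb away with heights of 33 in iPSC and 136 in MEF, and chr11:57914161-57914920, in MEF alone with 114. Of 5 intermediate regions 4 were in no other list, and the fifth was the shared region at Sap30l, a gene of a histone deacetylase complex, with heights of 151, 103, 107 and 161 in the intermediate, iPSC, ESC and MEF. The intermediate had a peak in 0 of 3 regions that iPSC and ESC shared and MEF lacked, with an upper limit of 56.1%.

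**Figure D5:**
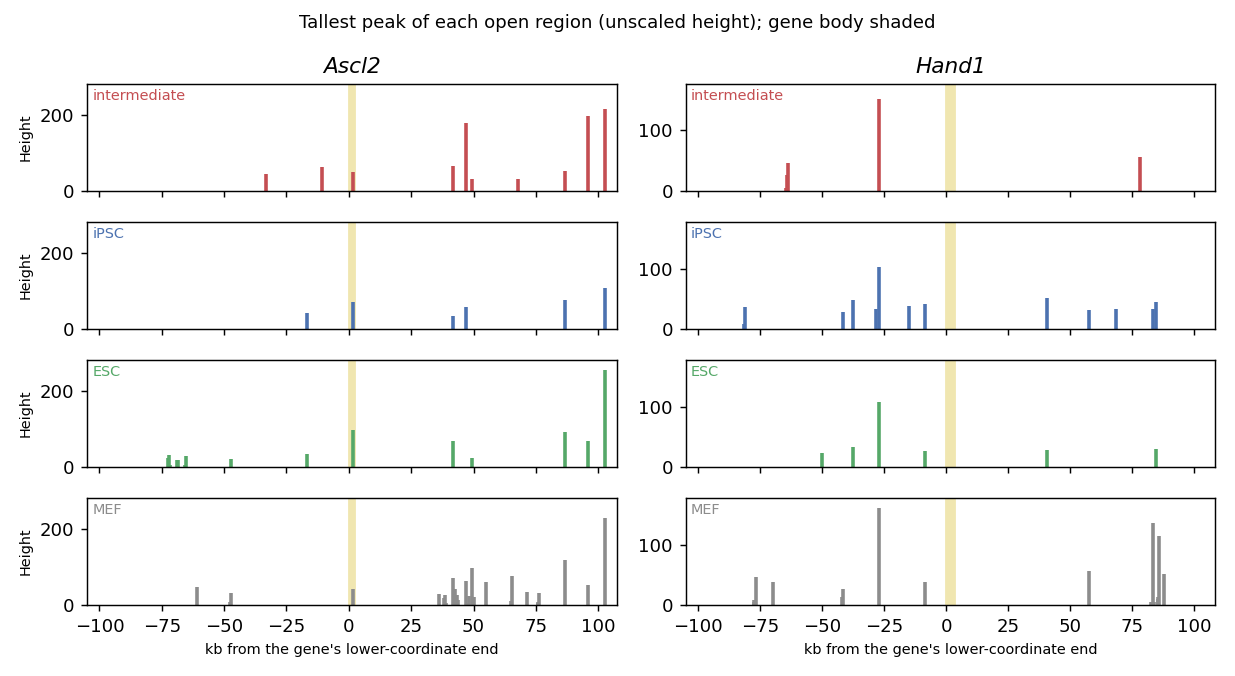
Open regions at Ascl2 (left) and Hand1 (right) by distance in kb from the lower-coordinate end of the gene, 1 row per library; each line is a region, its length the unscaled height of the tallest peak, and the gene body is shaded. The Ascl2 body holds a line in every row and the Hand1 body in none. Of the MEF lines that the intermediate lacks, 0 stand within 20 kb of Ascl2 and 1 within 20 kb of Hand1.

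The shares of intermediate regions at these genes that other lists also held had intervals that included the shares over the series. Of 107 intermediate regions, 47 were open in ESC, 43.9% (34.9 to 53.4), 41 in iPSC, 38.3% (29.7 to 47.8), and 30 in MEF, 28% (20.4 to 37.2), where the shares over the series were 38.3%, 36.3% and 28.3%. Seen from the other lists, these were 49.5% (39.6 to 59.4) of the ESC, 47.7% (37.4 to 58.1) of the iPSC and 28% (20.4 to 37.2) of the MEF regions at the 7 genes. The shares over the series were 43.0%, 35.1% and 21.7%. Of these intervals, that of iPSC lay above its share over the series and the others included theirs. This contrast did not hold once regions within 1 kb of any protein-coding gene end were left out. The shares were then 46.8% (36 to 57.8) for ESC, 42.5% (31.8 to 53.9) for iPSC and 23.5% (15.8 to 33.6) for MEF. Each of these intervals lay above the matching share over the series, 34.7%, 26.7% and 14%. Of 26 regions that iPSC and ESC shared and MEF lacked, 16 were open in the intermediate, 61.5% (42.5 to 77.6), where 35.8% over the series were. The 16 were 5 of 7 at Tfap2c, 3 of 3 each at Cdx2 and Gata3, 3 of 6 at Eomes, 2 of 3 at Elf5 and 0 of the 4 at Ascl2 and Hand1. The intermediate had 54 of the 253 regions open where both iPSC and ESC were closed, 21.3%, where 19.9% of all regions were, and 22 of the 54 lay at Elf5. The opposite class held 15 regions, 5.93%, where 8.69% of all regions were. Regions open in the intermediate alone numbered 49, 19.4%, where 18.2% of all regions were, and 21 of them lay at Elf5 and 11 at Tfap2c.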

How the data were processed

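ATAC-seq was done on 4 mouse libraries, 1 each for the intermediate, iPSC, ESC and MEF. Per the submitters' processing notes, the tools were MACS 1.4.2-1, Bowtie2, Picard and CASAVA 1.8.2 and the build was mm10, with no roles named; no source used here states parameters. Per the file headers, each deposited file lists peaks with start, end, summit and height, and the deposited height is a whole-number signal of at least 5 that nothing in the files scales to depth. Peaks of a list often lie 10 bp apart, so accessible stretches had been divided, which raises counts of regions.

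Peaks on the 19 autosomes and X that shared 1 bp were merged (Python 3.11.15, pandas 2.3.3, numpy 2.4.6), a region being open where a list had a peak. GRCm38 gene positions and promoters came from RefSeq GRCm38.p6; strand came from the promoter table. Intervals are Wilson 95% intervals (statsmodels 0.14.6). With 1 library per group there was no test and no replicate check. Region merging was tested on simulated lists of well-separated sites, which held no stretches divided into pieces. All 7 genes are described; regions named are those at gene ends, the tallest per library, gained, lost or in the intermediate alone, and others chosen after their values were seen. The members, the gene and marker lists, the motifs and the alternatives were chosen with earlier results of these data known. The marker lists were those of fibroblast, pluripotent, primitive endoderm, endothelial and myeloid cells.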

Additional observations from a re-analysis of the deposited data

How the results depend on the processing

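Across 10 alternatives for regions and 5 for gene ends, 51 of 75 recomputed totals stayed within 1.5 times of the count, or within the interval of the share, and 24 moved. Joining peaks at most 10 bp apart gave 36 lost regions, 15.2% of MEF-only regions open in the intermediate (6.85% before joining) and 31.0% of intermediate regions in no other list (45.8% before). Taking 500 bp around each summit gave 41, 15.8% and 33.3% for the same values, and an overlap of 50% of the shorter peak gave 32.5% for the last. Over the series, joining gave 8.45% of MEF-only stretches open in the intermediate and 37.8% of intermediate stretches in no other list. The taller 50% of each list gave 50 gained, 38 lost, 19.5% of MEF-only regions open, 32 gained in iPSC and 33 gained in ESC. A narrower window holds fewer regions: within 20 kb there were 23 gained, 18 lost, 18 gained in iPSC and 26 in ESC, and within 50 kb 51, 37, 36 and 42. Regions nearest to a member gave 46, 22, 31 and 34. The share of pluripotent regions open in the intermediate moved under none of the alternatives run. The count of genes with an end peak in the intermediate, 4 in the main setting, ranged more widely without passing the limit of 1.5 times. It was 3 with heights under 10 left out, 3 with the taller 50% of each list and 6, at that limit, with an end window of 2.5 kb. Over all 11 settings, gains outnumbered losses at Elf5 and Tfap2c in 11 and at Hand1 in 0; at Ascl2 they did so in 2, the 20 kb window and the nearest-gene rule. For single genes, 80 of 140 counts stayed within 1.5 times. No paired analysis was possible because each group has 1 library. The read depth behind each list is unknown, so a peak that is not listed is no measurement of closed chromatin.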
